A study of Mus musculus with 2 samples.

Results

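The nuclear-encoded genes of the mitochondrial respiratory chain were examined in single-cell transcriptomes of the Achilles tendon injury site. Genes were taken by symbol: the Ndufa, Ndufb, Ndufc, Ndufs and Ndufv genes of complex I, Sdha to Sdhd of complex II, the Uqcr genes of complex III, the Cox4 to Cox8 genes of complex IV and the Atp5 genes of complex V. Of 85 matching symbols, 83 had at least 20 unique molecular identifiers (UMIs, each standing for 1 captured transcript) over both libraries and were kept, out of 32285 genes listed and 26688 with at least 1 UMI. By symbol they comprise 38 genes of complex I (Ndufa4 and Ndufa4l2 among them), 4 of complex II, 8 of complex III, 16 of complex IV and 17 of complex V. The 2 left out were Cox7b2, with 5 control and 3 irradiated UMIs, and Cox8c, with 0 UMIs in either. The kept genes with the fewest UMIs were Cox8b (10 control, 18 irradiated) and Cox7a1 (124 and 144). One of the 83, Ndufb1-ps, is annotated as a non-coding transcript, and the others as protein coding.

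Both libraries came from unsorted cells of male C57BL/6 mice aged 8 to 10 weeks. All animals carried the same injury, a burn of 30% of the body surface on the back plus a cut through the left Achilles tendon, after which bone forms in soft tissue (heterotopic ossification), and tissue was taken on day 7. The control group had no radiotherapy, and the irradiated group received a single 7 Gy X-ray dose aimed at the injury through a 2 cm collimator. The protocol describes irradiation on day 1 or day 3 after surgery in arms of 10 mice, and neither the day for the sequenced library nor the number of mice pooled in it is given plainly. The uninjured right hindlimb was not analysed here. The comparison asks how radiotherapy alters the cells at the site.

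There was 1 library per group, so treatment, library and animals cannot be told apart, no test between groups was possible, and every interval below covers counting error only. The control library held 11369 barcodes (180080740 UMIs, median 10423 per barcode) and the irradiated library 8302 (111753092 UMIs, median 9118), of which 8744 and 7126 were kept as cells. Barcodes above 10% mitochondrial UMIs made up 14.9% of the control and 6.13% of the irradiated library. Among kept cells, 21 barcode sequences occurred in both libraries. The respiratory chain genes took 1.38% of all control UMIs and 1.40% of all irradiated UMIs. Cells were clustered and named from marker transcripts, which gave 11 classes with the ending "-like", and 4 of 34 clusters stayed unnamed. Because these genes were among those clustered, their levels across classes are a description. In the mesenchymal-like class the mesenchymal markers summed to 59005 counts per 1000000 UMIs of the class (CPM) in control and 66426 CPM in irradiated cells, macrophage and monocyte markers to 323 and 985 CPM and keratinocyte markers to 722 and 1028 CPM. Its fat cell markers summed to 24.7 and 443 CPM and its red cell markers to 46.9 and 404 CPM. In mononuclear phagocyte-like cells the keratinocyte markers summed to 797 and 277 CPM and the mesenchymal markers to 523 and 136 CPM. The part of such transcripts in the results below was not tested. Paired values give the control library first.

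The respiratory chain passes electrons from NADH (complex I) and succinate (complex II) through complex III to complex IV, where oxygen is reduced, and pumps protons across the mitochondrial inner membrane. Complex V, the ATP synthase, uses the returning protons to make ATP. Most subunits are encoded in the nucleus and imported, and 13 core subunits are encoded by mitochondrial DNA. Several subunits of complex IV exist as isoforms from separate genes, with one form present widely and the other restricted to certain tissues. Osteoclasts, which resorb bone, are known for abundant mitochondria, while mature neutrophils rely mainly on glycolysis.

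The osteoclast-like class had the largest share of its UMIs in these genes among the 11 named classes, and the neutrophil-like class the smallest. In osteoclast-like cells (85 control and 71 irradiated cells, led by Ctsk, Mmp9 and Acp5), the genes took 2.67% of UMIs (95% counting interval 2.64 to 2.69) in control and 2.70% (2.67 to 2.73) in irradiated cells. In neutrophil-like cells (840 and 1268 cells) they took 0.550% (0.540 to 0.559) and 0.413% (0.408 to 0.418). The osteoclast-like and neutrophil-like classes therefore lay at opposite ends in both libraries, with no overlap of their intervals.

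Between these ends, keratinocyte-like cells stood at 1.65% in control and 1.76% in irradiated cells, melanocyte-like cells at 1.56% and 1.88% (12 and 10 cells only), and pericyte and smooth muscle-like cells at 1.42% and 1.52%. Mesenchymal-like cells, the fibroblast class, stood at 1.26% and 1.33%. The control values of mononuclear phagocyte-like (1.23%), lymphatic endothelial-like (1.23%), T and NK-like (1.20%), Schwann-like (1.19%) and endothelial-like cells (1.19%) were neighbours. Each interval overlapped that of the next class in this order. The mononuclear phagocyte-like interval (1.23 to 1.24) did not reach the endothelial-like one (1.18 to 1.20). Read as a median over single cells, the order at the ends was the same, with 2.21% and 2.36% in osteoclast-like, 1.58% and 1.61% in keratinocyte-like and 0.501% and 0.363% in neutrophil-like cells. A neutrophil-like cell had a median of 12 UMIs of these genes in either library, against 323 and 400 in a keratinocyte-like cell and 318 and 333 in an osteoclast-like cell. Neutrophil-like cells were also the shallowest, with a median of 2109 and 3148.5 UMIs in all, while keratinocyte-like cells had 20829.5 and 25689.

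The gradient was shared by nearly all members. The filter asked for control UMIs, and at least 20 UMIs over both libraries, in every named class. Of the 74 members that passed, 69 were highest in osteoclast-like and 70 lowest in neutrophil-like cells of the control library. The widest ranges belonged to Ndufc1, a small accessory subunit of complex I, at 234 CPM in osteoclast-like against 14.3 CPM in neutrophil-like control cells, to Atp5g3, one of 3 genes for the c-ring of the ATP synthase, at 675 against 42.8 CPM, and to Ndufs3, a core complex I subunit, at 179 against 11.9 CPM. These are ranges of 16.4-fold, 15.8-fold and 15.04-fold. The smallest range was that of Ndufa7, an accessory complex I subunit, at 199 against 87.9 CPM (2.27-fold). Members highest elsewhere included Ndufa8, a complex I subunit, which reached 379 CPM in endothelial-like control cells and 64.6 CPM in neutrophil-like ones, and Cox7a2l, known for joining complexes III and IV into supercomplexes, which reached 337 CPM in endothelial-like cells. In osteoclast-like cells the counting intervals of the libraries overlapped for complexes I, II, III and V. Their shares were 0.795% and 0.794% for complex I, 0.0732% and 0.0724% for complex II, 0.239% and 0.246% for complex III, and 0.873% and 0.855% for complex V. Complex IV took 0.685% (0.671 to 0.699) in control and 0.735% (0.720 to 0.752) in irradiated cells, a log2 ratio of 0.10 (0.060 to 0.15). The osteoclast marker transcripts of that class summed to 7799 CPM in control and 11065 CPM in irradiated cells. Its skeletal muscle markers summed to 8.40 and 433 CPM (10 of 11 higher, 7 at 0 in control) and its fat cell markers to 0.764 and 130.5 CPM, and their part in these levels was not tested.

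**Figure D1:**
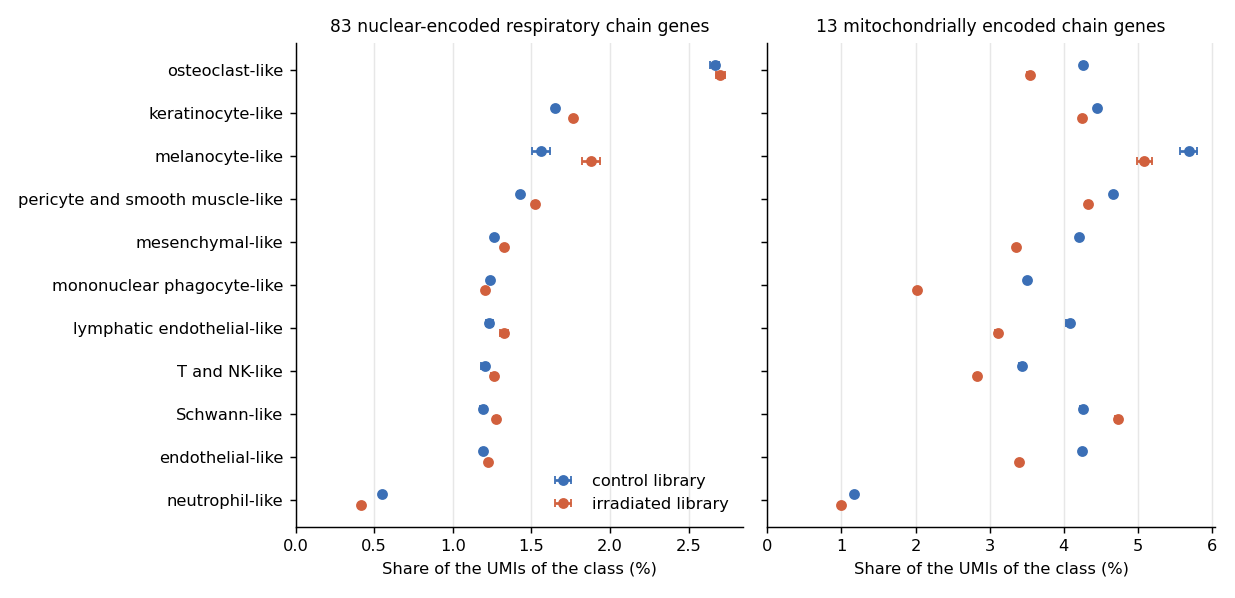
Share of the UMIs of each cell class (horizontal axis, percent) taken by the 83 nuclear-encoded respiratory chain genes (left) and the 13 mitochondrially encoded ones (right), with 1 point per library and 95% counting intervals. Osteoclast-like cells lie near 2.7% and neutrophil-like cells near 0.5% on the left, and the irradiated point lies left of the control point on the right in all but the Schwann-like class.

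Irradiated and control libraries were compared in 5 classes, those of 200 or more cells per library. A gene was called higher or lower where its CPM differed by at least 1.5-fold and the 95% interval of the ratio left out equality, among genes with at least 20 UMIs in the class. Few members were called outside the neutrophil-like class, and those that were called were mainly tissue-restricted isoforms. In mesenchymal-like cells 4 of 81 measured members were higher (Cox6b2, Cox4i2, Ndufa4l2 and Ndufa1) and 0 lower, where 12.8% of all 17186 genes tested were higher and 6.98% lower. In keratinocyte-like cells 2 of 80 were higher (Cox6b2 and Ndufa1) and 1 lower (Cox4i2), beside 7.16% higher and 7.95% lower of 16302 genes. In endothelial-like cells 1 of 80 was higher (Cox6b2) and 0 lower, beside 8.64% and 4.41% of 13409 genes. In mononuclear phagocyte-like cells 0 of 82 were higher and 0 lower, beside 6.08% and 10.4% of 14323 genes. In neutrophil-like cells 0 of 78 were higher and 30 lower, beside 5.0% higher and 23.7% lower of 9276 genes.

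Outside the neutrophil-like class most members had at least 1000 UMIs, and among genes with that many in the class the background was 6.17% higher and 4.53% lower in mesenchymal-like, 3.72% and 2.9% in keratinocyte-like, 3.91% and 1.77% in endothelial-like and 5.94% and 2.86% in mononuclear phagocyte-like cells. In neutrophil-like cells only 5 of the 78 measured members reached 1000 UMIs, so the 8.21% higher and 9.76% lower among such genes there are not comparable with the members, and the 5.0% and 23.7% above are. Below the 1.5-fold threshold, many members lay slightly above equality in 3 classes. The median log2 ratio of the members was 0.10 in mesenchymal-like (all genes -0.032), 0.12 in keratinocyte-like (all genes -0.025), 0.11 in endothelial-like (all genes 0.010), -0.0037 in mononuclear phagocyte-like (all genes -0.11) and -0.47 in neutrophil-like cells (all genes -0.33). Summed over all members, the log2 ratio was 0.068 (0.062 to 0.075) in mesenchymal-like, 0.095 (0.091 to 0.10) in keratinocyte-like, 0.044 (0.030 to 0.058) in endothelial-like, -0.036 (-0.044 to -0.029, turning to 0.069 with ratios centred on the median of all genes) in mononuclear phagocyte-like and -0.41 (-0.44 to -0.38) in neutrophil-like cells.

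The makeup of the classes by cluster differed between the libraries. Of the mesenchymal-like class, clusters 3 and 4 held 32.1% and 33.2% of control cells and 19.4% and 8.67% of irradiated ones, while cluster 5 (Dcn, Apod, Mfap5) held 17.9% and 53.9%. Within each cluster the summed member log2 ratio was 0.14, 0.24 and 0.042 for clusters 3, 4 and 5, and 0.11 for cluster 14, which carries the tendon genes Thbs4 and Fmod. Within keratinocyte-like clusters it lay between -0.0041 (cluster 18) and 0.27 (cluster 19), and within mononuclear phagocyte-like clusters between -0.11 (cluster 7) and 0.080 (cluster 12), which held 2.48% of control and 17.4% of irradiated cells of the class. In the mononuclear phagocyte-like class, cluster 1 (Ccl8, C1qc) held 42.9% and 15.9% of cells and cluster 0 (Cd74, H2-Aa) 26.8% and 33.6%, and in the keratinocyte-like class cluster 11 held 19.7% and 10.8% and cluster 15 held 10.9% and 20.7%. Endothelial-like cluster 6, with 96.1% of control and 74.1% of irradiated cells, gave 0.070, and cluster 28, with 3.85% of control and 25.9% of irradiated cells, gave -0.016.

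**Figure D2:**
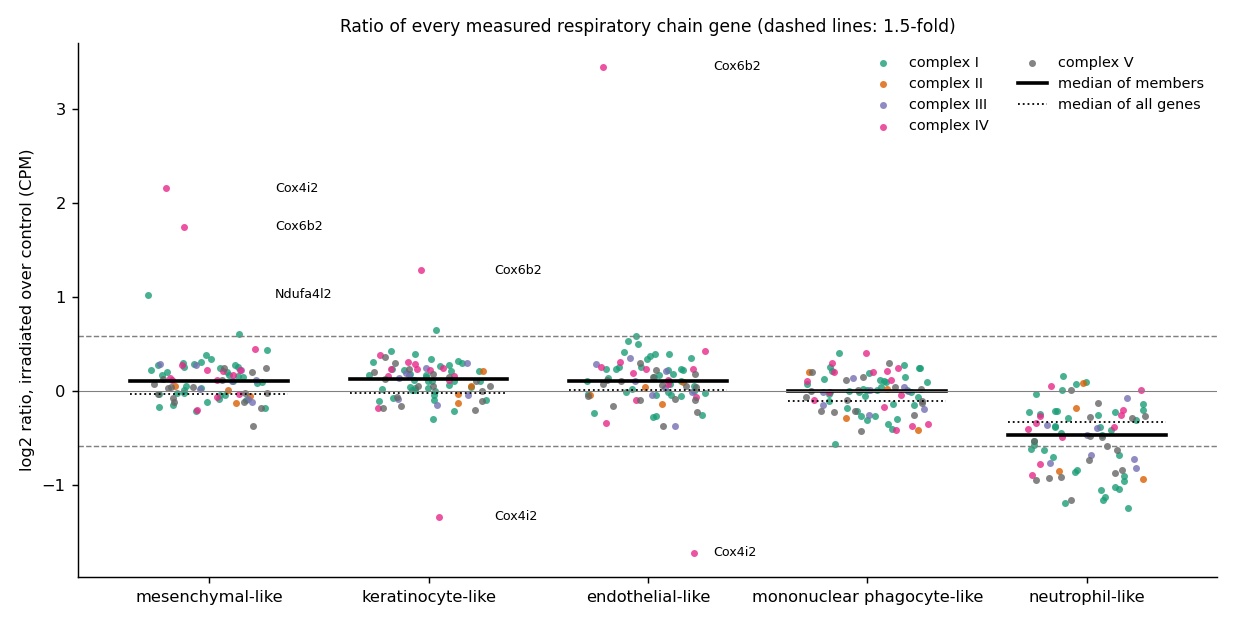
Log2 ratio of CPM, irradiated over control, for every measured respiratory chain gene (1 point each, coloured by complex) in the 5 compared classes, with solid bars for the median of the members, dotted bars for the median of all genes and dashed lines at 1.5-fold. Most points lie between the dashed lines in 4 classes, a few complex IV isoforms stand far outside, and the neutrophil-like points are shifted down to a median of -0.47.

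Cox6b2 was the member higher in the irradiated library in the most classes. It encodes the testis form of subunit 6B of complex IV, whose general form is Cox6b1, and lies at chr7:4751792-4753094 (GRCm38, minus strand) with no other annotated gene over it. In endothelial-like cells it had 12 UMIs (1.22 CPM) in control and 72 UMIs (13.3 CPM) in irradiated cells, a 10.9-fold difference (log2 3.45, 2.56 to 4.47). In mesenchymal-like cells it had 236 UMIs (3.91 CPM) and 226 UMIs (13.1 CPM), a 3.36-fold difference (log2 1.75, 1.48 to 2.02). In keratinocyte-like cells it had 134 UMIs (2.49 CPM) and 232 UMIs (6.06 CPM), a 2.43-fold difference (log2 1.28, 0.97 to 1.60). In these 3 classes the intervals of the ratio lay wholly above equality, although the gene stayed a low-level transcript in each.

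Cox6b2 did not follow this direction in every class. In mononuclear phagocyte-like cells it stood at 5.21 CPM in control and 4.03 CPM in irradiated cells, with a log2 ratio of -0.37 that was not called. In classes too small for the comparison, it stood at 18.2 and 28.6 CPM in pericyte and smooth muscle-like cells and at 3.49 and 26.4 CPM in lymphatic endothelial-like cells (3 and 25 UMIs). Schwann-like cells had 9 and 2 UMIs, and osteoclast-like cells 1 and 6.

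The share of cells with a Cox6b2 UMI moved with its level. It was 1.93% (exact binomial interval 0.928 to 3.51) of control and 14.2% (10.5 to 18.5) of irradiated endothelial-like cells, 8.04% and 18.8% of mesenchymal-like cells and 5.35% and 11.4% of keratinocyte-like cells. With cells thinned to 2000 UMIs, and those with fewer left out, these shares were 0.398% and 5.54%, 1.02% and 2.31%, and 0.587% and 1.61%. In neutrophil-like cells, where the gene had 1 and 5 UMIs, the share was 0.119% and 0.394% at lower depth. Without the 5 cells of each library with the most UMIs of the gene, a check chosen after seeing the data, the log2 ratio was 1.62 in mesenchymal-like and 1.26 in keratinocyte-like cells. In endothelial-like cells it was 4.31, but only 10 control cells held the gene, so that leaving out 5 removed most of its control UMIs. Within clusters it had the same direction in the mesenchymal-like and main endothelial-like ones, with 4.02 and 14.6 CPM in mesenchymal-like cluster 3, 3.02 and 12.1 CPM in 4, 7.68 and 16.0 CPM in 5, 2.70 and 7.52 CPM in 14, and 1.24 and 15.2 CPM in endothelial-like cluster 6. Among keratinocyte-like clusters the level ranged widely, from 17.75 and 28.05 CPM in cluster 15 (Krt15, Lgr5) to 0.795 and 0.482 CPM in cluster 9 (Krt2, Krt10). Cluster 15 held 59 of the 134 control and 109 of the 232 irradiated keratinocyte-like UMIs of the gene. Its own log2 ratio was 0.66, and it held 10.9% of control and 20.7% of irradiated cells of the class. The part of this makeup in the keratinocyte-like ratio was not tested. In endothelial-like cells the summed level of keratinocyte markers was 919.8 CPM in control and 1716 CPM in irradiated cells (11 of 16 higher, none at 0) and that of mesenchymal markers 1554 and 639 CPM (4 of 12 higher, none at 0), and their part in the Cox6b2 ratio was not tested.

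The general form Cox6b1 stood at 212 and 258 CPM in mesenchymal-like, 299 and 363 CPM in keratinocyte-like, 194 and 230.4 CPM in endothelial-like, 265 and 307 CPM in mononuclear phagocyte-like and 143 and 109 CPM in neutrophil-like cells, control first. Its log2 ratios were 0.28, 0.28, 0.25, 0.21 and -0.39, and none was called. Cox6b1 and Cox6b2 thus differed in the size of their ratio within the same cells.

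The start regions of both forms, and of Cox6a1 for comparison, are shown because this pair held the member called higher in the most classes, a choice made after values were seen. Sequences are from RefSeq on GRCm38.p6, from 250 bases before to 50 after the gene's start and 300 bases in all, written 5′ to 3′ on the gene's strand, with matches to the NRF1 and ETS cores named after them in capitals. Cox6a1 lies at chr5:115348909-115349208, Cox6b1 at chr7:30626065-30626364 and Cox6b2 at chr7:4753045-4753344, all on the minus strand.
Cox6a1: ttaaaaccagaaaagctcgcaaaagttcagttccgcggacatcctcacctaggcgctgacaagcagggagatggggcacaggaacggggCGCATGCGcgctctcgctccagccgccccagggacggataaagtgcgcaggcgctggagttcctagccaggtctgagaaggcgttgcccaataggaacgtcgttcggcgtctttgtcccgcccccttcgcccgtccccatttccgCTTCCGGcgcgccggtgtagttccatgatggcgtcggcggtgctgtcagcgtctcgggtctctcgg
Cox6b1: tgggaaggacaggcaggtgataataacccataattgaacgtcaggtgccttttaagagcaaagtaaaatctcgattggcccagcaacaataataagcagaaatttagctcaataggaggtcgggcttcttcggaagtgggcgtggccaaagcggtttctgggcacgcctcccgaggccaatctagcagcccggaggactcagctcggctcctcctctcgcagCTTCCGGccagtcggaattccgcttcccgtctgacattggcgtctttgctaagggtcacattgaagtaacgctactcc
Cox6b2: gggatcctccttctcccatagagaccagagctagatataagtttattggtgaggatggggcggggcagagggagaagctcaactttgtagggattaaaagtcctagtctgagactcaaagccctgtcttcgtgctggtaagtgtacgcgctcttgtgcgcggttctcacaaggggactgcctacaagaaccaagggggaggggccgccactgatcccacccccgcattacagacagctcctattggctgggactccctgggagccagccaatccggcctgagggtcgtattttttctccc
Cox6a1 held the NRF1 core CGCATGCG and an ETS core, Cox6b1 an ETS core (in both genes as its reverse complement), and Cox6b2 none of the 6 motifs sought. Promoters were found for 68 of the 83 members by gene ID or symbol, out of 27025 genes in the table, and motifs were sought on both strands. CGCATGCG, the palindromic core of the nuclear respiratory factor 1 (NRF1) site, was in 9 of 68 (13.2%) against 2.07% of all genes in windows of the same length. The looser CGCNNGCG, which contains it, was in 31 (45.6%) against 16.4%. CCGGAAG, a core of ETS factors such as GABPA, was in 17 of 68 against 9.93%. AAGATGGCG, for YY1, was in 7 (10.3%) against 1.64%, TCAAGGTCA, for oestrogen-related receptors, in 2 (2.94%) against 0.466%, and ACGTG, the core of the hypoxia element, in 18 (26.5%) against 21.8%. No promoter was found for Cox4i1, Cox4i2, Cox6a2 or Ndufa4l2, so no motif was sought in them. Among the other isoform genes with a promoter, ACGTG was in the restricted Cox7a1 and Cox8b and also in Atp5g1, Atp5g2 and Atp5g3. Atp5g2 held CGCATGCG and Atp5g3 TCAAGGTCA as well. The general Cox8a held an ETS core, while Cox7a2, Cox7a2l, Cox7b and Ndufa4 held none of these motifs. These are matches of letters only and show no binding.

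Cox4i2 and Ndufa4l2 were the other restricted forms with called ratios, and both were most abundant in the pericyte and smooth muscle-like class. Cox4i2 encodes the lung form of complex IV subunit 4, known in oxygen-responsive cells, and its general partner is Cox4i1. It lies at chr2:152754173-152765037 (plus strand). Ndufa4l2 is a hypoxia-inducible relative of Ndufa4, which is now counted as a subunit of complex IV. It lies at chr10:127514967-127517154 (plus strand) and overlaps Shmt2 on the other strand, and whether the counting used strand is not given in the sources used here. In pericyte and smooth muscle-like cells (281 control and 185 irradiated cells) Cox4i2 stood at 168 and 134 CPM (log2 -0.33, -0.49 to -0.17) and was seen in 63.0% and 60.0% of cells. Ndufa4l2 stood at 491 and 391 CPM (log2 -0.33) and was seen in 87.2% and 77.3% of these cells. Neither difference in this class reached 1.5-fold.

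In mesenchymal-like cells Cox4i2 had 70 UMIs (1.16 CPM) in 45 control cells and 89 UMIs (5.17 CPM) in 24 irradiated cells, and its log2 ratio was 2.16 (1.69 to 2.63). Of the 89 irradiated UMIs, 68 lay in 5 cells, 32 of them in 1 cell. Without the 5 cells of each library with the most UMIs the log2 ratio was 0.73, so the size of this ratio rested on those cells. The pericyte markers of the mesenchymal-like class summed to 1043 CPM in control and 569.8 CPM in irradiated cells, with 8 of 12 higher, and their part in the ratio was not tested. In keratinocyte-like cells Cox4i2 had 32 UMIs (0.595 CPM) and 9 UMIs (0.235 CPM), with a log2 ratio of -1.34 (-2.59 to -0.24), and in endothelial-like cells 18 and 3 UMIs, which was not called. The keratinocyte-like call ended under a stricter cell filter (-0.77), with no doublets left out (-1.12) and with an equal doublet threshold (-1.08). Cox4i1 stood at 636 and 607 CPM in mesenchymal-like, 763 and 854 CPM in keratinocyte-like, 773 and 688 CPM in mononuclear phagocyte-like and 357 and 255 CPM in neutrophil-like cells, and none of these differences was called.

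Ndufa4l2 was higher in irradiated mesenchymal-like cells, with 5800 UMIs (96.0 CPM) in control and 3357 UMIs (195 CPM) in irradiated cells and a log2 ratio of 1.02 (0.96 to 1.08). It was seen in 47.1% and 50.6% of these cells, or 13.8% and 20.1% with cells thinned to 2000 UMIs and those with fewer left out. All 4 mesenchymal-like clusters had more of it in the irradiated library, with 54.3 and 135 CPM in cluster 3, 128 and 391 CPM in 4, 80.5 and 114 CPM in 5, and 129 and 275 CPM in 14. Without the 5 cells with the most UMIs the log2 ratio was 0.90.

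Ndufa4l2 was not called higher in any other compared class. Endothelial-like cells had 7.40 and 8.67 CPM (log2 0.23), a value that was -1.86 without the 5 cells of each library with the most UMIs of the gene. Keratinocyte-like cells had 142 and 116 CPM (log2 -0.29), with clusters from 352 and 223 CPM (cluster 19, Krt6b and Krt16) down to 6.92 and 7.72 CPM (cluster 15). Mononuclear phagocyte-like cells had 5.43 and 3.67 CPM (log2 -0.56), which was not called. Neutrophil-like cells had 14 UMIs in each library, or 5.55 and 2.42 CPM (log2 -1.20, -2.38 to -0.021), which was called lower on a small count. That call ended with an equal doublet threshold (-1.15), with ratios centred on all genes (-0.86) and with every cell weighted alike (-0.90). Ndufa4 itself stood at 515 and 443 CPM in mesenchymal-like (log2 -0.22), 714 and 717 CPM in keratinocyte-like, 361 and 388 CPM in endothelial-like and 310.5 and 234 CPM in mononuclear phagocyte-like cells (log2 -0.41), and was lower in irradiated neutrophil-like cells at 100.2 and 45.9 CPM (log2 -1.13). In mesenchymal-like cells the ratios of Ndufa4 and Ndufa4l2 therefore had opposite signs.

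The other isoform pairs gave no call outside the neutrophil-like class. Cox6a1, the general form of subunit 6A, stood at 156 and 175 CPM in mesenchymal-like, 143 and 187 CPM in keratinocyte-like, 103 and 138 CPM in endothelial-like and 117 and 144 CPM in mononuclear phagocyte-like cells, with log2 ratios from 0.16 to 0.42, none called. Its heart and muscle partner Cox6a2 stood at 2.09 and 2.03 CPM in mononuclear phagocyte-like cells. Cox7a1, the muscle form of subunit 7A, stood at 0.596 and 0.813 CPM in mesenchymal-like and 2.26 and 3.00 CPM in mononuclear phagocyte-like cells. Cox8a, the general form of subunit 8, stood at 344 and 402 CPM, 433 and 537 CPM, and 361 and 364 CPM in mesenchymal-like, keratinocyte-like and neutrophil-like cells, and its muscle and brown fat partner Cox8b at 0.0662 and 0.755 CPM in mesenchymal-like cells. That Cox8b value rests on 4 and 13 UMIs, too few for a ratio, and the fat cell markers of the class also stood higher in irradiated cells. The c-ring genes Atp5g1, Atp5g2 and Atp5g3 moved alike, with log2 ratios of -0.95, -0.88 and -0.93 in neutrophil-like cells, where all 3 were called lower.

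**Figure D3:**
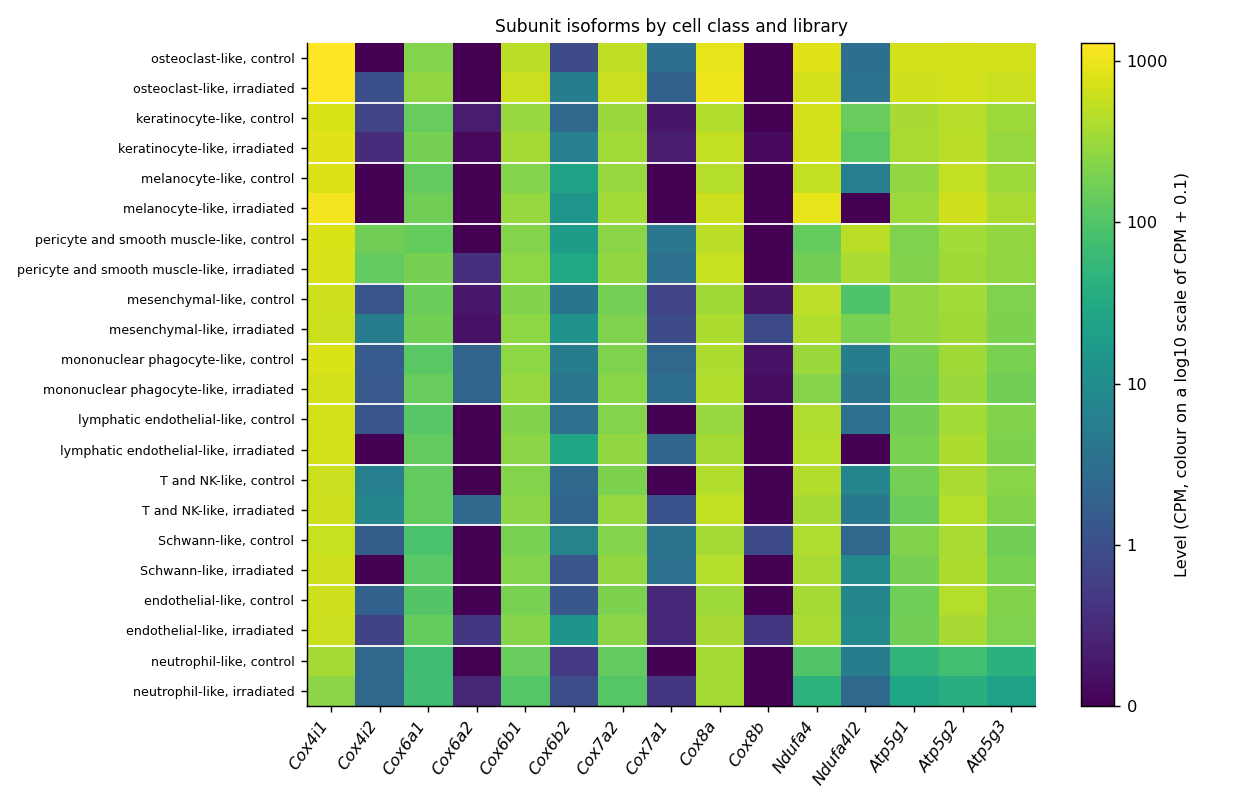
Level (colour, CPM on a log10 scale of CPM + 0.1) of 15 isoform genes (columns) in each named class of each library (rows, control above irradiated). The general forms Cox4i1, Cox6a1, Cox6b1, Cox7a2 and Cox8a are bright in every row, while Cox4i2 and Ndufa4l2 are brightest in pericyte and smooth muscle-like cells, with Ndufa4l2 also in keratinocyte-like and mesenchymal-like cells.

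Complex I, the entry point for electrons from NADH, had a summed log2 ratio of 0.11 in mesenchymal-like, 0.090 in keratinocyte-like, 0.082 in endothelial-like, -0.024 in mononuclear phagocyte-like and -0.44 in neutrophil-like cells. Ndufa1, a small accessory subunit encoded on the X chromosome (chrX:37187588-37191163, minus strand), was called higher in 2 classes. It stood at 59.4 and 90.6 CPM in mesenchymal-like (log2 0.61, 0.52 to 0.70) and 66.9 and 105 CPM in keratinocyte-like cells (log2 0.64, 0.58 to 0.71). In endothelial-like cells it stood at 59.0 and 77.3 CPM (log2 0.39), in mononuclear phagocyte-like cells at 78.1 and 92.5 CPM (log2 0.25) and in neutrophil-like cells at 35.3 and 30.7 CPM (log2 -0.20), none called. In the smaller classes it stood at 86.0 and 116 CPM in pericyte and smooth muscle-like and 101 and 143 CPM in osteoclast-like cells. The ratio of Ndufa1 lay close to the 1.5-fold threshold, and in keratinocyte-like cells it fell short with every cell weighted alike (0.58) or thinned (0.52), as it did in mesenchymal-like cells with clusters weighted alike (0.57).

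Apart from Ndufa1 and Ndufa4l2, complex I members stayed under the threshold outside the neutrophil-like class. Ndufb1-ps stood at 91.0 and 123 CPM in mesenchymal-like (log2 0.43) and 152 and 202 CPM in mononuclear phagocyte-like cells (log2 0.40). Ndufa5, an accessory subunit, stood at 36.5 and 54.6 CPM in endothelial-like cells (log2 0.58). Ndufa8 had ratios of -0.18, -0.21, -0.28 and -0.26 and Ndufv1, which carries the NADH-binding site, -0.15, -0.11, -0.27 and -0.27 in mesenchymal-like, keratinocyte-like, endothelial-like and mononuclear phagocyte-like cells. These members show both signs within 1 complex.

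Complex II, which oxidises succinate and belongs to the TCA cycle as well, had summed log2 ratios of -0.034, 0.019, -0.015, -0.096 and -0.35 in the same order with neutrophil-like last. Sdhb, its iron-sulphur subunit, had the highest ratio of the 4 members in 4 classes, for example 76.5 and 87.8 CPM in mononuclear phagocyte-like cells (log2 0.20). Sdhc, a membrane anchor, had the lowest in 4 classes, at 73.3 and 55.1 CPM in mononuclear phagocyte-like (log2 -0.41) and 71.8 and 65.5 CPM in mesenchymal-like cells (log2 -0.13). No complex II member was called outside the neutrophil-like class.

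Complex III, which passes electrons to cytochrome c, had summed log2 ratios of 0.15, 0.14, 0.088, -0.029 and -0.43. Uqcrq, a small ubiquinone-binding subunit, had the highest ratio of the 8 members in 4 classes, at 161 and 196 CPM in mesenchymal-like (log2 0.29) and 124 and 158 CPM in endothelial-like cells (log2 0.35). Uqcrfs1, the Rieske iron-sulphur protein, had the lowest in 4 classes, at 95.6 and 73.8 CPM in endothelial-like (log2 -0.37) and 93.9 and 78.5 CPM in mononuclear phagocyte-like cells (log2 -0.26). Neither was called in any class.

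Complex IV, cytochrome c oxidase, had summed log2 ratios of 0.092, 0.17, 0.072, -0.019 and -0.32. Beside the isoforms above, Cox5a, a subunit on the matrix side, had the lowest ratio in 3 classes, at 339 and 295 CPM in mesenchymal-like (log2 -0.20), 535 and 472 CPM in keratinocyte-like (log2 -0.18) and 495 and 372 CPM in mononuclear phagocyte-like cells (log2 -0.41), and it was called lower in neutrophil-like cells at 167 and 97.3 CPM (log2 -0.78). Cox7a2l stood at 337 and 266 CPM in endothelial-like cells (log2 -0.34) and was lower in neutrophil-like cells at 90.3 and 48.5 CPM (log2 -0.90).

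Complex V, the ATP synthase, had summed log2 ratios of -0.0097, 0.031, -0.028, -0.063 and -0.49. Atp5a1, the alpha subunit of its catalytic head, had the lowest ratio of the 17 members in 4 classes, at 346 and 266 CPM in mesenchymal-like (log2 -0.38), 502 and 436 CPM in keratinocyte-like (log2 -0.20), 327 and 252 CPM in endothelial-like (log2 -0.38) and 285 and 212 CPM in mononuclear phagocyte-like cells (log2 -0.42). The catalytic beta subunit Atp5b had ratios of -0.12, -0.18, -0.16 and -0.21. By contrast the small subunit Atp5e stood at 234 and 299 CPM in keratinocyte-like cells (log2 0.36) and the small membrane subunit Atp5k had ratios of 0.24, 0.23, 0.30 and 0.11. Atp5a1 and Atp5b thus had ratios below equality, and Atp5k above it, in all 4 classes.

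Of the 80 members measured in the mesenchymal-like, keratinocyte-like, endothelial-like and mononuclear phagocyte-like classes, 33 lay above equality in all 4 and 14 below it in all 4. Those above included 16 of complex I, 7 of complex IV and 7 of complex V. Those below included Ndufa8, Ndufv1, Sdhc, Uqcrfs1, Cox5a, Atp5a1, Atp5b and Atp5c1. The classes share the 2 libraries, so this repetition is not independent, and the side of equality depends on the scaling.

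Transcript length moved with these ratios. Members were split by the length of their main annotated transcript (the principal one, or else the longest) into short (at most 680 nucleotides), middle (at most 1078) and long. In mesenchymal-like cells the median log2 ratio was 0.20 for short, 0.10 for middle and -0.025 for long members, and 25 of 28, 17 of 25 and 12 of 28 lay above equality. The medians were 0.22, 0.12 and 0.034 in keratinocyte-like, 0.22, 0.11 and -0.029 in endothelial-like, 0.025, -0.017 and -0.13 in mononuclear phagocyte-like and -0.36, -0.51 and -0.66 in neutrophil-like cells. Short members thus had the highest median in each of the 5 classes.

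Other genes with at least 1000 UMIs were set beside them in the same length groups, while the members were not limited to that count. Their medians were 0.12, -0.025 and -0.067 in mesenchymal-like cells (139, 459 and 7393 genes), 0.11, -0.049 and -0.019 in keratinocyte-like, 0.073, -0.050 and -0.014 in endothelial-like, and 0.011, -0.074 and -0.038 in mononuclear phagocyte-like cells. Short genes outside the respiratory chain therefore also had the highest median in these 4 classes. In neutrophil-like cells, where few members reached 1000 UMIs, the other genes had medians of -0.17, -0.31 and -0.12 and are not comparable in count. The members were short as a list, with a median of 838 nucleotides against 3094 for genes with at least 1000 UMIs. Cox6b2 (585 nucleotides) and Ndufa1 (419) were in the short group. What part length plays in the members' ratios was not tested.

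**Figure D4:**
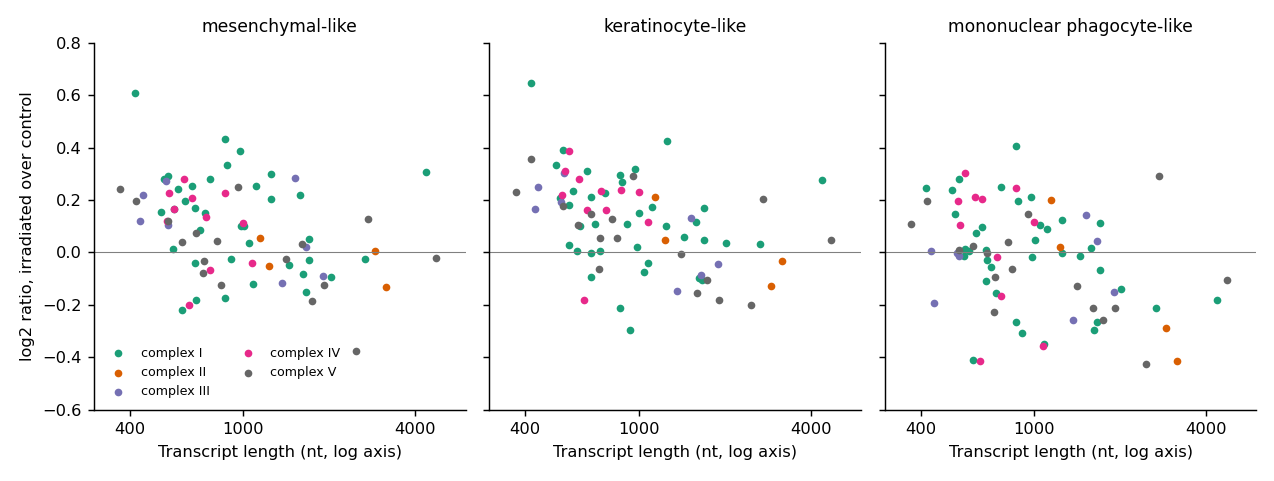
Log2 ratio of CPM, irradiated over control (vertical axis), against the length of the main annotated transcript (nucleotides, log axis) for members with at least 1000 UMIs in the mesenchymal-like (78 members, with Ndufa4l2 above the plotted range), keratinocyte-like (78) and mononuclear phagocyte-like class (77), coloured by complex. Short members lie mostly above equality in the left and middle panels, and the points lie lower towards longer transcripts.

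In neutrophil-like cells 30 of 78 measured members were lower in the irradiated library, 13 of 38 in complex I, 2 of 4 in complex II, 4 of 8 in complex III, 2 of 11 in complex IV and 9 of 17 in complex V. In this class 23.7% of all genes were called lower. With ratios centred on the median of all genes 11 members were lower. The 23.7% is from uncentred ratios, and the share of all genes after centring is not given here. The lowest ratios belonged to Ndufb5, a membrane-arm subunit of complex I, at 46.0 and 19.3 CPM (log2 -1.25, -1.64 to -0.86), and to Atp5c1, the central stalk of the ATP synthase, at 82.8 and 36.9 CPM (log2 -1.16, -1.45 to -0.88). Ndufv1 stood at 15.8 and 7.08 CPM (log2 -1.16), Atp5a1 at 97.9 and 51.9 CPM (log2 -0.91) and Uqcr11, a small complex III subunit, at 44.0 and 24.8 CPM (log2 -0.82). At the other end, the succinate dehydrogenase anchor Sdhd stood at 50.3 and 53.1 CPM (log2 0.079) and the complex I subunit Ndufa2 at 80.8 and 86.1 CPM (log2 0.092). With complexes assigned by symbol, the called members came from all 5, and complex IV had the smallest share. Ndufa4 and Ndufa4l2, both called lower, were counted with complex I here. The ranking of complexes I and IV depends on where these genes are counted.

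The neutrophil-like values depended on which clusters made up the class. Cluster 8 held 54.6% of control and 12.9% of irradiated neutrophil-like cells, and cluster 2 held 30.5% and 57.4%. The members took 0.709% of UMIs in control and 0.733% in irradiated cells of cluster 8 (log2 0.049), 0.433% and 0.359% in cluster 2 (log2 -0.27), and 0.404% and 0.449% in cluster 13 (log2 0.15). Within cluster 2, 21 of 75 members were lower beside 19.9% of all genes. Within cluster 8, 1 member was lower and 2 higher of 75, beside 5.19% and 6.34% of all genes. Within cluster 13, 2 were lower and 6 higher of 71, beside 7.01% and 5.42% of all genes. With the 3 clusters weighted alike, 7 members were lower and 2 higher, with a median log2 ratio of -0.060. Without cluster 8, a choice made after seeing the data, 15 were lower, with a median of -0.24 beside -0.23 for all genes. For the counts under this weighting and without cluster 8, the share of all genes called is not given here.

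Transcripts of other cell types differed between the libraries in the same cells. In the neutrophil-like class the keratinocyte markers summed to 1671 CPM in control and 527 CPM in irradiated cells (14 of 16 lower), and the mesenchymal markers to 824 and 217 CPM (11 of 12 lower). The macrophage and monocyte markers summed to 3038 and 2283 CPM, and the neutrophil markers themselves to 54271 and 67164 CPM. In cluster 8 the mesenchymal and keratinocyte markers summed to 1007 and 2113 CPM in control and 221 and 1087 CPM in irradiated cells. The part of these transcripts in the members' ratios was not tested. The cytoplasmic ribosomal protein genes took 3.63% of neutrophil-like UMIs in control and 2.41% in irradiated cells. Of these genes 43 of 84 were lower, beside 23.7% of all genes, and their median log2 ratio was -0.61. Lower values in this class were thus seen in other lists as well.

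**Figure D5:**
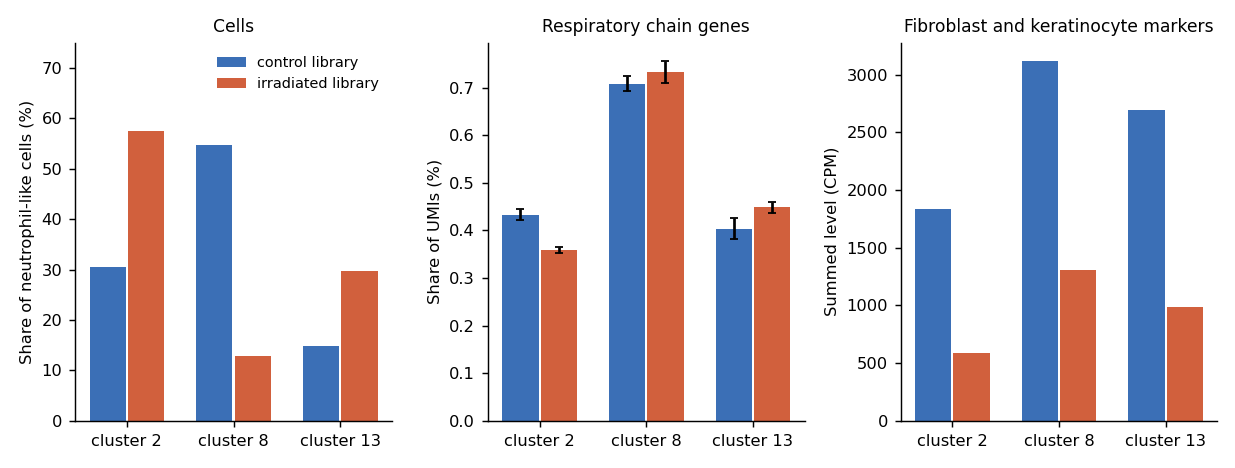
For neutrophil-like clusters 2, 8 and 13, the share of the class's cells in each library (left, percent), the share of UMIs taken by the respiratory chain genes with 95% counting intervals (middle, percent) and the summed level of mesenchymal and keratinocyte markers (right, CPM). Cluster 8, with the highest member share at 0.709% and 0.733%, holds most control cells, and the marker sums are lower in the irradiated library in all 3 clusters.

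The 13 mitochondrially encoded subunits did not run parallel to the nuclear ones. Cells above 10% mitochondrial UMIs had been left out, which limits these levels. In mononuclear phagocyte-like cells they took 3.51% of UMIs in control and 2.02% in irradiated cells (log2 -0.79). There 8 of 13 were lower, beside 10.4% of all genes. Among them were mt-Nd3 of complex I (323 and 152 CPM, log2 -1.09) and mt-Co3 of complex IV (8082 and 4117 CPM, log2 -0.97). Over the same cells the nuclear-encoded sum had a log2 ratio of -0.036 and no called member. In mesenchymal-like cells the mitochondrially encoded share was 4.20% and 3.36%. There 1 of 13 was lower (mt-Nd6, 31.6 and 21.1 CPM), beside 6.98% of all genes. The share was 4.24% and 3.40% in endothelial-like and 4.45% and 4.24% in keratinocyte-like cells, with 0 of 13 called in each. In neutrophil-like cells the share was 1.16% and 0.990% with 2 of 13 lower, beside 23.7% of all genes. Thus the mitochondrially encoded share was lower in the irradiated library in each of these 5 classes, while the nuclear-encoded share was higher in 3 of them. Within neutrophil-like clusters the mitochondrially encoded share was not always lower, at 1.42% and 1.79% in cluster 8 and 1.07% in either library in cluster 13.

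Of 17 TCA cycle genes, Idh2, the mitochondrial NADP-linked isocitrate dehydrogenase, was lower in all 5 classes and was the only TCA cycle gene called in 4 of them. In those 4 classes 1 of 17 (5.88%) was thus lower. The share of all genes lower was 6.98% in mesenchymal-like, 7.95% in keratinocyte-like, 4.41% in endothelial-like and 10.4% in mononuclear phagocyte-like cells. The classes share the 2 libraries, so the repetition over classes is not independent. Idh2 stood at 118 and 51.9 CPM in mesenchymal-like (log2 -1.19), 62.9 and 39.3 CPM in keratinocyte-like (log2 -0.68), 41.2 and 26.7 CPM in endothelial-like (log2 -0.62), 50.5 and 26.0 CPM in mononuclear phagocyte-like (log2 -0.96) and 8.72 and 1.90 CPM in neutrophil-like cells (22 and 11 UMIs). In neutrophil-like cells 8 of 16 measured TCA cycle genes were lower, beside 23.7% of all genes. Their median log2 ratio was -0.68, where all genes had -0.33.

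Of 44 assembly factors, which build the complexes without remaining in them, 1 or 2 were called in the mesenchymal-like, endothelial-like and mononuclear phagocyte-like classes and 0 in keratinocyte-like cells. The shares of all genes called in each class are given above. Cox17, the copper chaperone of complex IV, was higher in endothelial-like cells at 55.7 and 83.6 CPM (log2 0.59) and in neutrophil-like cells at 292 and 497 CPM (log2 0.77). In neutrophil-like cells 9 of 26 measured assembly factors were lower (all genes 23.7%). Of the mitochondrial ribosomal proteins, 0 were called in mesenchymal-like, keratinocyte-like and endothelial-like cells. In neutrophil-like cells 26 of 68 were lower and 2 higher (all genes 23.7% and 5.0%). The electron carriers and flavoproteins had 3 of 6 lower in neutrophil-like cells (Etfa, Etfb and Gpd2, beside 23.7% of all genes) and 0 called in the other 4 classes. Regulators of mitochondrial biogenesis included Ppargc1a, the coactivator PGC-1 alpha, which was lower in mesenchymal-like cells at 6.82 and 3.54 CPM (log2 -0.94) and higher in keratinocyte-like cells at 0.502 and 1.46 CPM (log2 1.54). In either class it was the only call among 14 regulators, beside 6.98% of all genes lower and 7.16% higher, respectively. In mononuclear phagocyte-like cells 1 of 14 regulators was lower (all genes 10.4%), and in neutrophil-like cells 2 of 7 (all genes 23.7%).

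Among inner membrane carriers, Slc25a4, the ADP/ATP exchanger, was lower in mononuclear phagocyte-like cells at 94.4 and 50.1 CPM (log2 -0.91). It was also lower in neutrophil-like cells at 18.2 and 4.83 CPM (log2 -1.92, 46 and 28 UMIs), where 4 of 9 carriers and porins were lower (all genes 23.7%). The uncoupling protein Ucp2 was higher in mesenchymal-like cells at 19.3 and 35.6 CPM (log2 0.88). Of 6 mitochondrial antioxidant genes, 2 were higher in mononuclear phagocyte-like cells (all genes 6.08%), the superoxide dismutase Sod2 (208 and 344 CPM, log2 0.73) and the peroxiredoxin Prdx5 (534 and 877 CPM, log2 0.71). Both were also higher in neutrophil-like cells (log2 0.69 and 0.66), where 1 of 5 measured, Txn2, was lower (all genes 5.0% higher and 23.7% lower). Of 15 genes of the mitochondrial stress response, 4 were higher in mesenchymal-like cells (all genes 12.8%), among them the transcription factors Atf5 (34.9 and 66.0 CPM, log2 0.92) and Ddit3 (17.3 and 32.4 CPM, log2 0.91), while 3 were lower in keratinocyte-like cells (all genes 7.95%) and, of 14 measured, 4 were lower and 1 higher in mononuclear phagocyte-like cells (all genes 10.4% and 6.08%).

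Glycolysis, the route to ATP outside mitochondria, gave other directions by class. In neutrophil-like cells 5 of 16 measured glycolytic genes were higher and 0 lower (all genes 5.0% and 23.7%). Among them hexokinase Hk2 stood at 36.8 and 94.2 CPM (log2 1.35) and triosephosphate isomerase Tpi1 at 97.9 and 216 CPM (log2 1.14). In keratinocyte-like cells 3 of 17 were lower (all genes 7.95%). These were the glucose transporter Slc2a1 (218 and 106 CPM, log2 -1.04), the enolase Eno1 (386 and 251 CPM, log2 -0.62) and the pyruvate dehydrogenase kinase Pdk1 (33.5 and 22.0 CPM, log2 -0.60). In mononuclear phagocyte-like cells the lactate exporter Slc16a3 was higher at 72.7 and 120.3 CPM (log2 0.73), and in mesenchymal-like and endothelial-like cells 0 of 17 were called.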

How the data were processed

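The files deposited by the authors hold raw UMI counts per gene and barcode for 2 libraries (10x Genomics 3' v3 chemistry, per the labels' protocols), with no normalisation. They were made with Cell Ranger 5 against mm10, per the submitters' processing notes (5.0.1 per the file headers). Barcodes were already called as cells and the lowest total was 500 UMIs. Samples were grouped by their treatment label.

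Limits for cells were 500 genes, 1000 UMIs and a mitochondrial share of 10%, which left out 1076, 718 and 1693 control and 664, 501 and 509 irradiated barcodes (some failed several limits). Scrublet in scanpy 1.11.5 marked 568 control (5.00%, score threshold 0.245) and 72 irradiated doublets (0.867%, threshold 0.341), which were left out, and an equal threshold was an alternative. The kept cells were 76.9% and 85.8% of barcodes. Both libraries were clustered together without integration (2000 variable genes, 30 components, 15 neighbours, Leiden resolution 1.0, seed 0), with anndata 0.12.19, leidenalg 0.10.2, igraph 0.11.9, numpy 2.4.6, scipy 1.17.1, pandas 2.3.3, scikit-learn 1.9.0, matplotlib 3.10.9 and Python 3.11.15. Clusters were named from 20 marker sets: 3 or more markers had to reach 50 CPM and 2 times the median over clusters (10 CPM added), with a mean log2 score of 2 or higher and no rival above 0.75 of it. This rule, and joining macrophage, monocyte and dendritic clusters as mononuclear phagocyte-like, were chosen after clusters were seen. Names rest on transcripts rebuilt here.

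UMIs were summed per class and library and given as CPM. The 5 compared classes held, control first, 60422967 and 17212008 UMIs (mesenchymal-like, 2302 and 623 cells), 53813744 and 38287778 (keratinocyte-like, 2114 and 1263 cells), 17666340 and 28040591 (mononuclear phagocyte-like, 2141 and 2831 cells), 2524235 and 5794983 (neutrophil-like) and 9859362 and 5421668 (endothelial-like, 519 and 317 cells). Ratios are log2 irradiated over control with 95% intervals from the exact conditional test of 2 Poisson counts. Shares of UMIs carry exact Poisson intervals, and shares of cells carry Clopper-Pearson (exact binomial) intervals. All of these cover counting error only. With 1 library per group no p-value was computed. The calculation of ratios and calls was tested on simulated counts.

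Members, 11 gene lists, motifs and marker sets were chosen with earlier results of these data known. Named in the text are members with a partner isoform, the highest and lowest ratio of each complex in each class (at least 100 UMIs), members called in at least 3 classes and those with the widest and smallest range of level. Genes of the other lists, and members beyond this rule, were named after their values were seen. Gene positions and transcript lengths are from GENCODE M21 (GRCm38) and promoters from RefSeq (GRCm38.p6). Alternatives covered the cell filters, doublets, scaling, weighting, count minimum, resolution and depth. Leaving out cluster 8, cluster 28 or the 5 cells with the most UMIs of a gene was added after seeing the data.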

Additional observations from a re-analysis of the deposited data

Results flagged for a closer look

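Cox4i2 had opposite ratios in 2 classes under the same comparison, with a log2 ratio of 2.16 in mesenchymal-like and -1.34 in keratinocyte-like cells. Ndufa4l2 likewise had a log2 ratio of 1.02 in mesenchymal-like and -1.20 in neutrophil-like cells. With 1 library per group the difference between classes was not tested for either gene. The Cox4i2 values rest on 70 control and 89 irradiated UMIs in mesenchymal-like and on 32 and 9 in keratinocyte-like cells, and the neutrophil-like value of Ndufa4l2 on 14 UMIs per library.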

How the results depend on the processing

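No called value changed sign under the alternatives run, which covered Cox6b2, Cox4i2, Ndufa4l2, Ndufa1 and Atp5a1 in single classes, and the other members only in the counts, sums and medians. Of the alternative values 279 stayed on their side of the rule or close to the reported value, 60 moved and 9 lost a call, and the sum and median in mononuclear phagocyte-like cells, which had no call, turned positive in some settings. The summed log2 ratio in mesenchymal-like cells was 0.039 under the stricter filter (1000 genes, 2000 UMIs, 5% mitochondrial), 0.055 with no doublets left out, 0.050 without mitochondrial, ribosomal and haemoglobin UMIs, 0.10 centred on all genes, 0.032 with every cell weighted alike, 0.14 with clusters weighted alike and 0.025 thinned to 2000 UMIs. In keratinocyte-like cells the same settings gave 0.090, 0.10, 0.13, 0.12, 0.054, 0.15 and 0.055. There the lower count was 0 under the stricter filter, with no doublets left out, with an equal doublet threshold and from 100 UMIs, and the higher count was 1 with every cell weighted alike and when thinned. In endothelial-like cells the sum was 0.023 with no doublets left out, 0.017 without mitochondrial, ribosomal and haemoglobin UMIs, 0.060 with clusters weighted alike, 0.081 thinned and 0.070 without cluster 28. There the higher count was 2 under the stricter filter, 5 with every cell weighted alike, 3 with clusters weighted alike, 0 from 100 UMIs and 5 thinned. The lower count was 2 with every cell weighted alike and 1 with no doublets left out, thinned or without cluster 28.

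In mononuclear phagocyte-like cells the sum was -0.087 with up to 20% mitochondrial UMIs, -0.051 under the stricter filter, -0.073 without mitochondrial, ribosomal and haemoglobin UMIs, 0.069 centred (median 0.10), -0.018 with every cell weighted alike, -0.013 with clusters weighted alike (median 0.035) and -0.066 at resolution 0.5. There 1 member was lower under the stricter filter, without mitochondrial, ribosomal and haemoglobin UMIs and with every cell weighted alike, and 1 was higher with clusters weighted alike. In neutrophil-like cells the sum was -0.36 under the stricter filter, -0.47 with an equal doublet threshold and -0.35 thinned. Thinning left out 373 of 840 control and 165 of 1268 irradiated neutrophil-like cells, so the thinned value covers a different set of cells. Centred on all genes the sum was -0.078 (median -0.14, 11 lower), with clusters weighted alike -0.048 (median -0.060, 7 lower, 2 higher) and without cluster 8 -0.16 (median -0.24, 15 lower). The cause of these shifts was not tested. Counts of called members under the alternatives are given without the share of all genes called under the same setting.

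Over its alternatives the log2 ratio of Cox6b2 ranged from 2.85 to 4.42 in endothelial-like, 0.93 to 1.43 in keratinocyte-like and 1.53 to 2.12 in mesenchymal-like cells, and that of Cox4i2 from 0.73 to 2.59 in mesenchymal-like cells. No paired analysis was possible because each group has 1 library. Depth limits the restricted isoforms most: Cox8b, Cox7a1 and Cox6a2 had too few UMIs for a ratio in most classes, and neutrophil-like cells had a median of 10 members detected per cell.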

Other observations

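Cox6a2, the heart and muscle form of complex IV subunit 6A, was concentrated in 1 small unnamed cluster. Cluster 32 (17 control and 26 irradiated cells, led by Siglech and Ccr9) had 93 UMIs of Cox6a2 (727 CPM) in control and 207 UMIs (633 CPM) in irradiated cells, of 150 and 281 UMIs in all barcodes. Cox6a2 was among the leading genes of that cluster, so its level there is a description.

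Unnamed cluster 30, led by the lipid synthesis genes Elovl4, Scd1, Elovl6 and Fa2h, had the respiratory chain genes at 2.50% of UMIs in 40 control cells and 2.95% in 19 irradiated cells. The control value lay below the 2.67% of osteoclast-like cells and the irradiated value above their 2.70%, with no overlap of counting intervals. All unnamed clusters together stood at 1.62% and 1.65%.

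The cytoplasmic ribosomal protein genes, also short transcripts, had a median log2 ratio of 0.18 in keratinocyte-like, 0.0065 in mesenchymal-like, -0.070 in endothelial-like and -0.094 in mononuclear phagocyte-like cells. In keratinocyte-like cells they took 19.1% of control and 21.3% of irradiated UMIs.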
